A study of Mus musculus with 6 samples.

Results

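The genes described here are 10 members and partners of the Polycomb system, taken from a study of mouse bone marrow cells with and without the DNA methyltransferase gene Dnmt3a. They were chosen by symbol, and all 10 were found among the 15139 rows of the expression table: Ezh1, Ezh2, Eed, Suz12, Bmi1, Ring1, Rnf2, Cbx7, Asxl1 and Kdm6b. Both groups carried Mx-Cre, a recombinase driven by an interferon-inducible promoter and used for deletion in blood cells. The wild-type group (WT, MxCre with Dnmt3a+/+) was measured in 3 libraries and the knockout group (KO, MxCre with Dnmt3a-/-) in 2 libraries, replicates 2 and 3. KO replicate 1 was not analysed here. Marrow cells of both groups were grown in RPMI with 10% fetal bovine serum, IL3 (10 ng/ml) and SCF (50 ng/ml), and RNA was taken in week 1. The sources used here do not give the age of the mice or the interval since deletion. In all that follows, WT values are listed from replicate 1 to 3 and KO values from replicate 2 to 3. The series asks how loss of Dnmt3a changes blood cell homeostasis and myeloid output.

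Polycomb proteins keep developmental genes silent through marks on histones. Polycomb repressive complex 2 (PRC2) methylates lysine 27 of histone H3 (H3K27) with either of the paralogous enzymes EZH1 and EZH2, which act only together with EED and SUZ12. Polycomb repressive complex 1 (PRC1) adds ubiquitin to histone H2A with RING1 or RNF2 and binds the PRC2 mark through CBX proteins such as CBX7, and BMI1 is one of the alternative PCGF subunits that define its forms. ASXL1 is the partner of the deubiquitinase BAP1, which takes that ubiquitin off again, and KDM6B is a demethylase of H3K27. In blood, DNMT3A, ASXL1 and EZH2 are all mutated in clonal and myeloid disease, and BMI1 and EZH1 are known for their part in stem cell maintenance.

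Levels are in FPKM, which divides the fragments of a gene by its length and by the mapped total, so that levels of different genes can be set side by side. Changes are the difference between KO and WT on the log2(FPKM + 1) scale, which understates the change of low genes, and a gene was called at a limma adjusted p under 0.05 (Benjamini-Hochberg over all 11365 genes tested). Of those, 2507 (22.1%) were called, with 1032 (9.08%) higher and 1475 (13%) lower in KO. All 10 Polycomb-related genes exceeded 1 FPKM in every library and were tested. Called were 2 of the 10, Ezh1 and Kdm6b, both higher in KO, a share near that among all tested genes. In limma fits that omitted WT replicate 2, WT replicate 3 or KO replicate 3, or took sex as a covariate, 0 of the 10 were called (3, 2, 1 and 3 at an unadjusted p under 0.05). The median log2 change of the 10 genes was 0.09, against -0.04 over all tested genes. In 5 of the 10 both KO libraries lay above all WT libraries (20.4% of all tested genes did) and in 2 both lay below (30.8%), so that 7 of 10 did not overlap where 51.1% of all tested genes did not.

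Several facts of the libraries bear on every comparison. Dnmt3a itself held 6.68, 9.99 and 9.04 FPKM in WT and 2.58 and 3.42 FPKM in KO. The sexes were mixed: Xist, the RNA of the inactive X, stood at 14.4 and 15.3 FPKM in WT replicates 2 and 3 and at no more than 0.02 FPKM in the other 3 libraries. Markers of several cell types also differed between the groups. Of 13 mast cell markers 10 rose, and their summed level went from 12160 to 13950 FPKM in WT to 28590 to 32750 FPKM in KO. Of 11 monocyte and macrophage markers 9 fell (summed level 6201 to 8060 FPKM in WT, 2625 to 2816 FPKM in KO), and of 11 neutrophil markers 10 fell (22080 to 32690 and 12670 to 16390 FPKM). The 6 tested markers of dendritic cells and MHC class II all fell, with a list sum of 1589 to 2170 FPKM in WT and 155 to 311 FPKM in KO. Calls were also made among basophil (3 of 5 higher), eosinophil (1 of 7 higher), erythroid (3 of 7 lower) and megakaryocyte markers (2 higher and 2 lower of 5). Of 2 tested lymphocyte markers Nkg7 fell and Cd79b was not called, and of 2 tested stromal and endothelial markers Pecam1 rose and Acta2 fell. The other markers of both kinds with values, Cd79a, Cd4, Ncr1, Col1a1, Col1a2, Cdh5 and Cxcl12, did not exceed 0.51 FPKM and were not tested. No marker with values in any cell type list was at 0 in all libraries. The 5 general leukocyte genes summed to 1852 to 1952 FPKM in WT and 1805 to 1816 FPKM in KO. However, Spi1 among them, a factor of myeloid cells, fell by 0.57 on the log2 scale (limma adjusted p = 0.00202). In such bulk RNA, a different mix of cells and a different level per cell cannot be told apart, and the part of cell makeup in the values below was not tested. Depth is unknown, since FPKM carry no read totals.

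The promoters of Ezh1, Ezh2, Ring1 and Rnf2 are shown because the ratios within these paralogous pairs are compared below, and because the CpG, printed in capitals, is the dinucleotide that DNMT3A methylates. Each sequence is the 250 bases before the start in the RefSeq promoter table, 5′ to 3′ on the strand of the gene (GRCm38.p6, the patch release of mm10): Ezh1 at chr11:101226464-101226713, Ezh2 at chr6:47595031-47595280, Ring1 at chr17:34024681-34024930 and Rnf2 at chr1:151500992-151501241, all on the minus strand. For Ezh2 that start lies inside the gene span given below, so most of its stretch is within the annotated gene, whereas the other 3 stretches begin just outside theirs.
Ezh1: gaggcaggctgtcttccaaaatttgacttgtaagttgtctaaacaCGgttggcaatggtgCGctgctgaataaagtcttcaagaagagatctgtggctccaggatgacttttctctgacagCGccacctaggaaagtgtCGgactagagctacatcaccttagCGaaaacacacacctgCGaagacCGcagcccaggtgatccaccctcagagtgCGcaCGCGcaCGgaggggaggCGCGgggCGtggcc
Ezh2: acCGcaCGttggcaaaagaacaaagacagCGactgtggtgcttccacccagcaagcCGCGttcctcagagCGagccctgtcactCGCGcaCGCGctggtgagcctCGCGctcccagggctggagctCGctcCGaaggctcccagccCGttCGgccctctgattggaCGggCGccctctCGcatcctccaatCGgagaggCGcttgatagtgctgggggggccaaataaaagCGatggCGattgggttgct
Ring1: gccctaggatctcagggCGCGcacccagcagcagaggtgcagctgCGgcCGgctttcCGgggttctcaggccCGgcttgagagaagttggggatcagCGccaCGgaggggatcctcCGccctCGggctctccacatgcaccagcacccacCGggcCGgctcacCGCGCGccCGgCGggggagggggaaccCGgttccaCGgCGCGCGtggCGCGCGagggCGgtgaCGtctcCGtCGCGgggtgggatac
Rnf2: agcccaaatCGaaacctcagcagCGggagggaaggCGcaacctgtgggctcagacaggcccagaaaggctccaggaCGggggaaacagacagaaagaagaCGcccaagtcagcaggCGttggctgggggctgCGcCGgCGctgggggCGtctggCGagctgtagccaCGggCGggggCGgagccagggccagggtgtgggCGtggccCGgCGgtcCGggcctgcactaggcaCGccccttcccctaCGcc
The Ezh1 stretch holds 14 CpGs, fewer than the 23 of Ezh2, the 30 of Ring1 and the 20 of Rnf2. In the wider RefSeq windows, which run on for 50 bases past the start, 9 of the 10 genes matched an entry, all but Kdm6b. Their median was 30 CpGs per window, against 7 over all 32851 windows, and the lowest of the 9 was Asxl1 with 13, at the 62.9th percentile. Suz12 had the most, 41, at the 96.8th percentile. All 9 windows thus held more CpGs than the median window, and DNA methylation was not measured. Both strands of the windows were also searched for short words of known factors. The CCAAT box (CCAAT, in 37.4% of all windows) was found in 4 of the 9 genes. The GC box (GGGCGG, 35.7%) was found in 6 and the CRE word TGACGTCA (1.79%) in 0. The E2F words TTTGGCGC and TTTCGCGC occur in 0.813% of all windows, and among these 9 genes Ezh2 alone held one, in the transcribed part of its window. The EGR words GCGTGGGCG and GCGGGGGCG occur in 3.47% of windows and were found in Rnf2 alone of the 9. The first base lies 80 bases before the RefSeq start. For Rnf2, alone of the 9, the bases after that start were not found near the beginning of an annotated transcript of the gene. The place of its start is therefore less certain. A match is a stretch of letters and not a shown binding site.

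The enzymes of PRC2 come first. Ezh1 (gene 14055, chromosome 11, 101191115 to 101226463, minus strand), whose product is the EZH enzyme typical of resting cells, held 9.92, 9.47 and 9.11 FPKM in WT. It held 12.17 and 15.24 FPKM in KO. Both KO libraries were above every WT library, and KO replicate 3 was the highest. The WT mean was 9.50 ± 0.406 FPKM (SD, n = 3) and the KO mean 13.7 ± 2.17 FPKM (SD, n = 2). Ezh1 thus rose by 0.48 ± 0.11 on the log2 scale (SE, limma adjusted p = 0.0205). The call was lost without KO replicate 3 (0.33, limma adjusted p = 0.0772), without WT replicate 2 or 3 (0.0628 and 0.0681) and with sex as a covariate (0.42, adjusted p = 0.151), a fit that rests on WT replicate 1 as the WT library of the same sex as the KO libraries. Over 14 alternatives its log2 change stayed between 0.33 and 0.63.

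Ezh2 (gene 14056, chromosome 6, 47530274 to 47595270), the EZH enzyme typical of dividing cells, held 22.34, 22.67 and 22.58 FPKM in WT and 25.08 and 23.39 FPKM in KO. The WT values were tight, with an SD of 0.171 FPKM around 22.5, and both KO values lay just above them. The log2 change of 0.10 (95% interval -0.07 to 0.27) did not pass the test (limma adjusted p = 0.378). Ezh2 was the more abundant enzyme in every library. Ezh1 made up 30.8%, 29.5% and 28.7% of the summed Ezh1 and Ezh2 FPKM in WT, and 32.7% and 39.5% in KO. The ratio of Ezh1 to Ezh2, which does not depend on how libraries are scaled, was 0.444, 0.418 and 0.403 in WT and 0.485 and 0.652 in KO. The KO ratios were thus above all WT ratios (exact permutation test, two-sided p = 0.2, the smallest that 3 against 2 libraries can give).

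**Figure D1:**
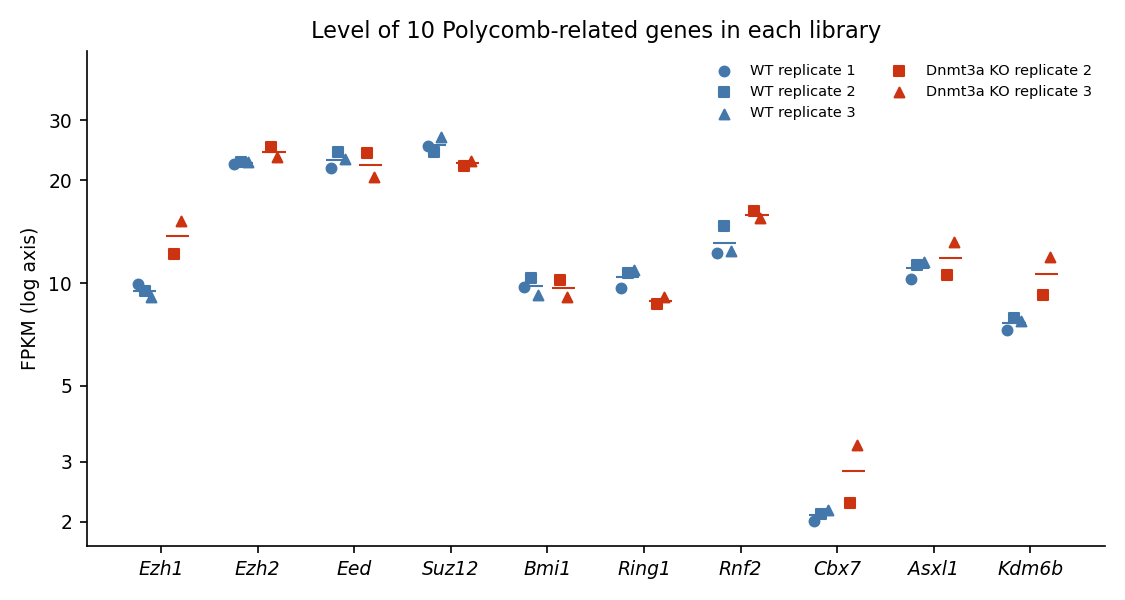
FPKM (log axis) of the 10 Polycomb-related genes in each library, with WT in blue, Dnmt3a KO in red, a marker shape for each replicate number and a bar at each group mean. Ezh1 and Kdm6b show both KO libraries above all WT libraries, with KO replicate 3 the higher, and Cbx7 is the lowest of the 10 genes, between 2.01 and 3.36 FPKM.

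The remaining core subunits of PRC2 showed no call. Eed (gene 13626, chromosome 7, 89954654 to 89980976), which reads the H3K27 mark and stimulates the enzyme, held 21.72, 24.25 and 23.12 FPKM in WT and 24.06 and 20.45 FPKM in KO. Its groups overlapped, and the log2 change was -0.05 (95% interval -0.27 to 0.17, limma adjusted p = 0.753). Its sign turned positive under upper-quartile scaling, quantile normalization and sex as a covariate and when KO replicate 3 was left out. Suz12 (gene 52615, chromosome 11, 79993106 to 80034123), the scaffold of the complex, held 25.30, 24.28 and 26.81 FPKM in WT and 22.08 and 22.84 FPKM in KO. Both KO libraries lay below all WT libraries, but the log2 change of -0.17 (-0.35 to 0.01) did not pass the test (limma adjusted p = 0.161). Summed over Ezh1 and Ezh2, the enzymes stood at 32.3, 32.1 and 31.7 FPKM in WT and 37.2 and 38.6 FPKM in KO. Set against Eed, the 2 enzymes had a ratio of 1.49, 1.33 and 1.37 in WT and 1.55 and 1.89 in KO (exact permutation test, two-sided p = 0.2, again the smallest possible). Both KO ratios were higher than every WT ratio.

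Among 8 tested partners of PRC2 from the list used here, 1 was called, Jarid2, which helps to bring PRC2 to its targets. It fell from 7.45, 7.76 and 6.90 FPKM in WT to 5.13 and 5.43 FPKM in KO, with a log2 change of -0.41 and an SE of 0.09 (limma adjusted p = 0.0207). Its call was lost under 6 of 14 alternatives, among them the fit with sex as a covariate and those that omit WT replicate 1, WT replicate 2 or either KO library. The histone-binding subunits Rbbp4 (log2 change -0.05, limma adjusted p = 0.725) and Rbbp7 (-0.21, 0.0975) and the accessory subunit Aebp2 (-0.07, 0.763) did not pass. The list had a median of -0.06, and its 1 call among 8 stands beside 22.1% called over all tested genes.

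In PRC1, the paralogous ubiquitin ligases lay on opposite sides. Rnf2 (gene 19821, chromosome 1, 151469398 to 151500991), which encodes RING1B, the main ligase in most cells, held 12.26, 14.68 and 12.46 FPKM in WT and 16.22 and 15.48 FPKM in KO. Ring1 (gene 19763, chromosome 17, 34020792 to 34024680), which encodes RING1A, held 9.67, 10.72 and 10.96 FPKM in WT and 8.69 and 9.09 FPKM in KO. Neither overlapped between groups, and neither passed the test over all genes. Of all tested genes 51.1% did not overlap, 20.4% with both KO libraries above and 30.8% with both below all WT libraries. The log2 change was 0.26 for Rnf2 (95% interval 0.02 to 0.49, limma adjusted p = 0.113) and -0.21 for Ring1 (-0.42 to 0.00302, adjusted p = 0.149). Each kept its sign and stayed uncalled under all 14 alternatives, with values from 0.21 to 0.35 for Rnf2 and from -0.26 to -0.11 for Ring1. Within libraries, the ratio of Ring1 to Rnf2 was 0.789, 0.730 and 0.880 in WT and 0.536 and 0.587 in KO. Both KO ratios were below every WT ratio (exact permutation test, two-sided p = 0.2, the smallest possible). That order is fixed by the separation of each gene between groups, so the ratio and its test add no support. The sum of the paralogs overlapped between groups, at 21.9 to 25.4 FPKM in WT and 24.6 to 24.9 FPKM in KO.

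**Figure D2:**
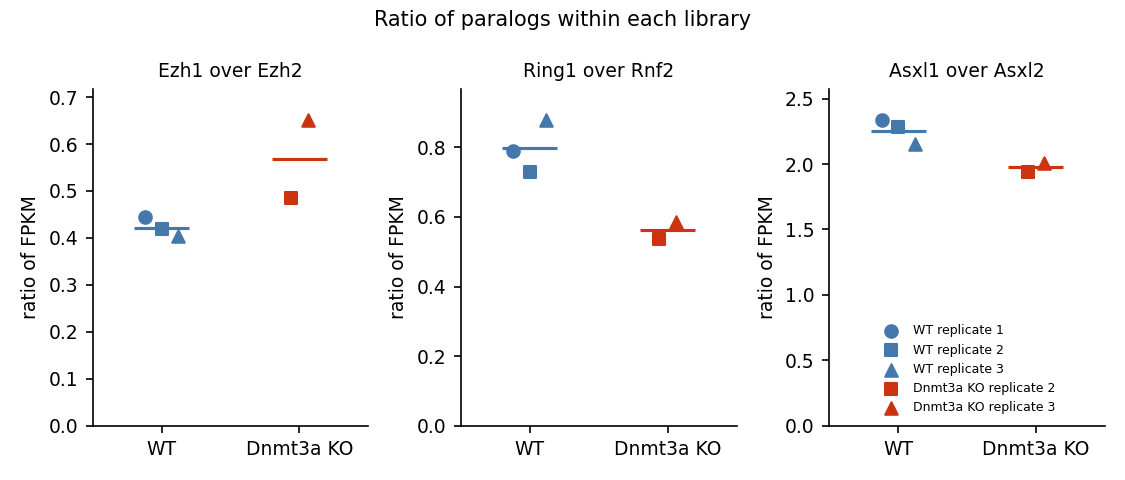
Ratio of FPKM between paralogs within each library, for Ezh1 over Ezh2, Ring1 over Rnf2 and Asxl1 over Asxl2, with points for libraries, bars for group means and axes from 0. Ezh1 over Ezh2 is higher in both KO libraries than in all WT libraries, and the other ratios are lower.

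Bmi1 (gene 12151, chromosome 2, 18677018 to 18686629), the PCGF subunit known for self-renewal of stem cells, was almost level. It held 9.77, 10.32 and 9.26 FPKM in WT and 10.21 and 9.11 FPKM in KO. KO replicate 2 lay inside the WT range and KO replicate 3 just below it, with a log2 change of -0.02 (95% interval -0.24 to 0.20, limma adjusted p = 0.916) whose sign turned under all 3 scaling alternatives. Its paralog Pcgf2 (1.87 to 2.76 FPKM in WT, 2.46 and 2.93 FPKM in KO, limma adjusted p = 0.526) was well below it in every library. Cbx7 (gene 52609, chromosome 15, 79915804 to 79971143), a reader of the H3K27 mark, was the lowest of the 10 genes, at the 12.1th percentile of tested genes by WT mean. It held 2.01, 2.10 and 2.17 FPKM in WT and 2.27 and 3.36 FPKM in KO. The KO libraries disagreed with each other: the log2 change of 0.29 (-0.07 to 0.64, limma adjusted p = 0.223) became 0.08 without KO replicate 3 and 0.50 without KO replicate 2. The gap between the KO libraries was larger for Cbx7 than for 90.2% of tested genes.

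Of the 25 other PRC1 subunits tested, 4 rose and 1 fell, with a list median of -0.07. Over all tested genes 22.1% were called, 9.08% higher and 13% lower, so that the list is near that share. Cbx6, another CBX reader, rose from 5.61, 5.27 and 5.80 FPKM in WT to 8.39 and 8.50 FPKM in KO (log2 change 0.53 ± 0.09 SE, limma adjusted p = 0.00663). Phc1, a polyhomeotic subunit that lets PRC1 form larger assemblies, rose from 6.74, 7.33 and 7.54 FPKM to 10.37 and 12.16 FPKM (0.58 ± 0.10, limma adjusted p = 0.00740). Scmh1, a PRC1-associated protein, rose by 0.45 and Bcor, a corepressor of variant PRC1, by 0.37 (limma adjusted p = 0.0264 and 0.0266). The repressor E2f6 of variant PRC1 fell from 10.81 to 11.40 FPKM in WT to 8.24 and 8.29 FPKM in KO, by 0.38 on the log2 scale (limma adjusted p = 0.0159). Phc1 was called under all 14 alternatives and Cbx6 under 13, all but sex as a covariate. Scmh1, Bcor and E2f6 were lost under 6, 6 and 4 of them, each with sex as a covariate and without either of WT replicates 2 and 3, and Scmh1 and Bcor also in the fit that omits KO replicate 3. Scmh1 further lost its call without KO replicate 2, and Bcor without WT replicate 1. The abundant subunits Wdr5 (log2 change -0.10, limma adjusted p = 0.365), Max (-0.22, 0.148) and Fbrs (0.05, 0.689) did not pass.

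The enzymes and partners that act against the Polycomb marks were measured as well. Kdm6b (gene 216850, chromosome 11, 69398508 to 69420367), the H3K27 demethylase also known as JMJD3 and for its induction in stimulated macrophages, held 7.31, 7.93 and 7.73 FPKM in WT and 9.25 and 11.96 FPKM in KO. Both KO libraries were above all WT libraries. The WT mean was 7.66 ± 0.316 FPKM (SD, n = 3) and the KO mean 10.6 ± 1.92 FPKM (SD, n = 2). The rise was 0.41 ± 0.12 on the log2 scale (SE, limma adjusted p = 0.0450). The call was lost under 8 of 14 alternatives (limma adjusted p from 0.0131 to 0.170 over the 14), among them the fits without WT replicate 1, 2 or 3 (0.113, 0.0942 and 0.106) and without KO replicate 3 (log2 change 0.24, limma adjusted p = 0.170), although the direction held in all of them. The antisense gene Kdm6bos overlaps Kdm6b for 1188 bases, and the sources used here do not say whether reads were told apart by strand. The same holds for Ezh2 and Suz12, which opposite-strand noncoding genes overlap for 5039 and 12515 bases. It also holds for shorter opposite-strand overlaps at Cbx7, Rnf2, Eed and Asxl1. On the same strand, where strand could not separate reads, Gm36527 overlaps Rnf2 for 3029 bases and Gm45120 overlaps Eed for 408 bases.

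The paralogous demethylase Kdm6a, named here for its kinship after its values were seen, is on the X chromosome and is known to escape X inactivation. It held 6.74, 12.75 and 13.08 FPKM in WT and 8.28 and 10.34 FPKM in KO. The WT libraries with Xist were thus the highest, and the log2 change of -0.16 (limma adjusted p = 0.712) became 0.41 (adjusted p = 0.160) with sex as a covariate. It was not called in either fit, but it was called lower with the replicate number as a block (-0.44, limma adjusted p = 0.0455). WT replicate 1 carries no weight in the block fit, and the WT libraries left in it are those with Xist.

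Asxl1 (gene 228790, chromosome 2, 153345830 to 153404007) held 10.31, 11.34 and 11.54 FPKM in WT and 10.56 and 13.16 FPKM in KO. KO replicate 2 lay inside the WT range and KO replicate 3 above it. The log2 change was 0.09 (95% interval -0.18 to 0.35, limma adjusted p = 0.632), and it was -0.06 without KO replicate 3. Asxl2, its paralog in the same complex, held 4.40 to 5.36 FPKM in WT and 5.44 and 6.54 FPKM in KO (log2 change 0.24, limma adjusted p = 0.205). Asxl1 over Asxl2 was 2.34, 2.28 and 2.15 in WT and 1.94 and 2.01 in KO, so that Asxl1 was the higher of the pair throughout and by less in KO (exact permutation test, two-sided p = 0.2, the smallest possible). By limma, 0 of the 11 tested genes of the BAP1 complex and of H3K27 and H2A mark removal were called. The share over all tested genes was 22.1%. Among the 11, 3 had an unadjusted p under 0.05 in limma, and the list median was -0.04. The deubiquitinase Bap1 (log2 change -0.04, limma adjusted p = 0.809) and its partners Hcfc1 (-0.10, 0.444) and Ogt (0.39, 0.137) were among them. Ogt rested on 1 library: its log2 change was 0.65 without KO replicate 2, where it was called (limma adjusted p = 0.0167), and 0.12 without KO replicate 3 (0.564).

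**Figure D3:**
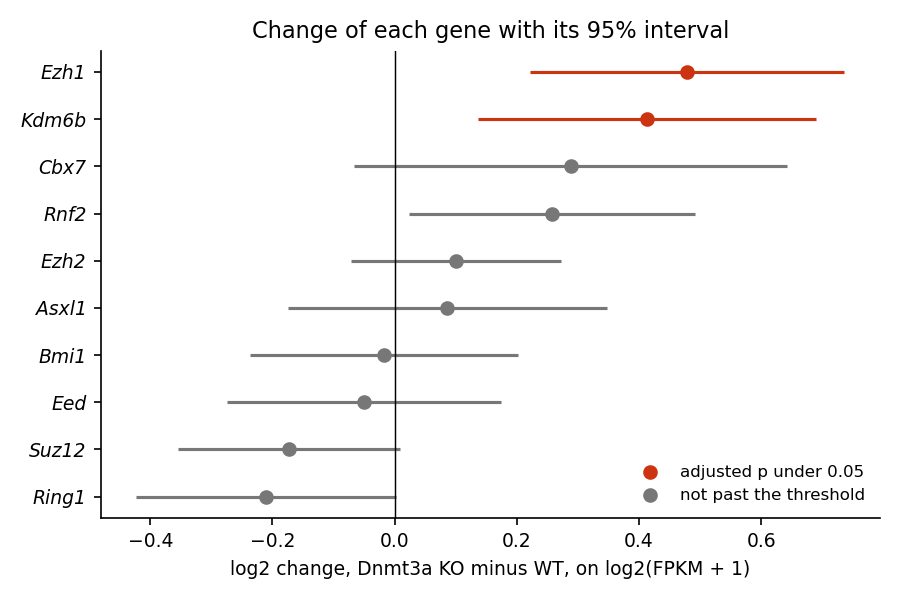
log2 change (Dnmt3a KO minus WT, on log2(FPKM + 1)) of each of the 10 genes with its 95% interval from limma, ordered by size. Ezh1 and Kdm6b (red) passed the adjusted threshold, the interval of Rnf2 begins at 0.02 without an adjusted call, and the intervals of the other 7 genes include 0.

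The 10 genes also differed in how far the KO libraries lay apart. On the log2(FPKM + 1) scale KO replicate 3 exceeded KO replicate 2 by 0.30 for Ezh1, 0.34 for Kdm6b, 0.42 for Cbx7 and 0.29 for Asxl1, where the median absolute gap over all tested genes was 0.16. For Ezh2, Suz12, Ring1 and Rnf2 the gap was under 0.10 in either direction. The called genes are therefore among those on which the KO libraries differed most, and without KO replicate 3 neither was called. By the distance between WT-centred log2 profiles over the 5 libraries, the genes most like Ezh1 among 141 tested genes of the lists were Zfp36, an immediate early gene that promotes mRNA decay, and Kdm6b (distances 0.136 and 0.171). Those most like Kdm6b were Bcor and Zfp36 (0.126 and 0.135).

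**Figure D4:**
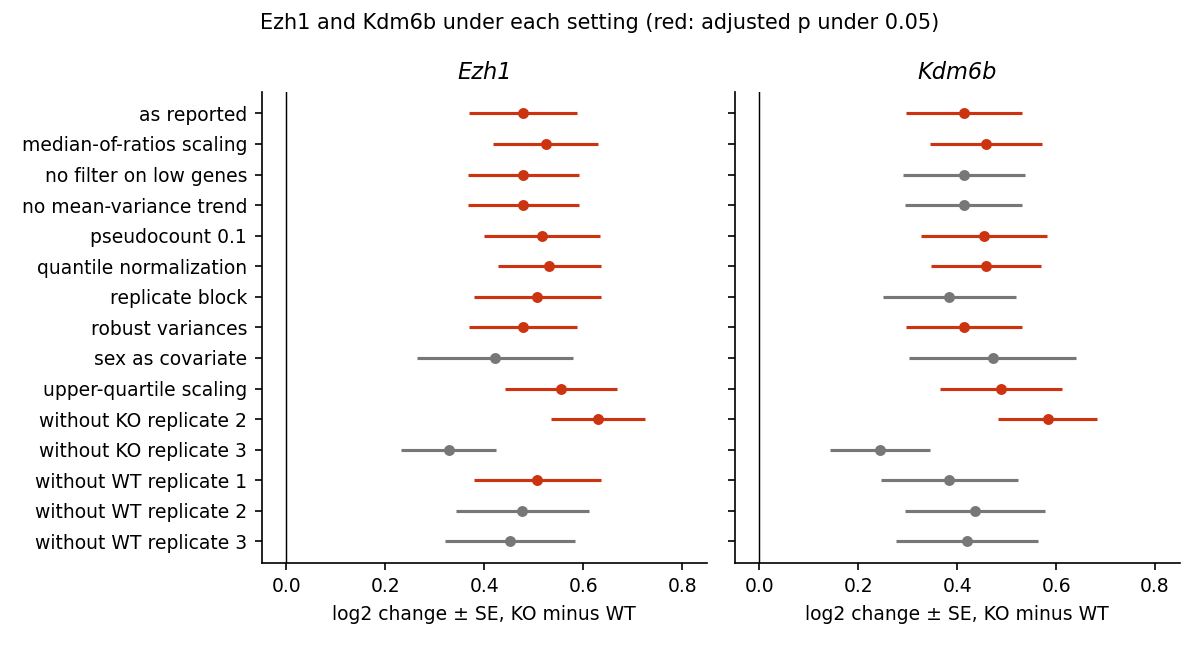
log2 change (KO minus WT) ± SE of Ezh1 and Kdm6b as reported and under each of 14 alternatives, with red where the limma adjusted p was under 0.05. All values are above 0, from 0.33 to 0.63 for Ezh1 and from 0.24 to 0.58 for Kdm6b.

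Gene lists that surround the Polycomb system give the setting, to be read beside the 22.1% called over all tested genes (9.08% higher and 13% lower). In the trithorax and MLL complexes, which place the activating marks that oppose Polycomb, 1 of 20 tested genes rose, Psip1 (log2 change 0.36, limma adjusted p = 0.0335), 19 were not called, and the median was 0.01. In the SWI/SNF remodellers, also opponents of Polycomb, 1 of 17 rose, Smarca2 (0.38, limma adjusted p = 0.0168), 16 were not called, and the median was -0.06. Psip1 and Smarca2 lost their calls under 7 and 5 of 14 alternatives, among them the fit with sex as a covariate and those that omit WT replicate 1, WT replicate 2 or KO replicate 3, and for Psip1 also without WT replicate 3. Genes of proliferation, a state in which Ezh2 is known to be high, fell in 9 of 28 tested, with 19 not called and a median of -0.24. E2f2 fell by 0.53, Cdt1 by 0.45 and Plk1 by 0.43 on the log2 scale (limma adjusted p = 0.00718, 0.0103 and 0.00839). With sex as a covariate E2f2 and Cdt1 were not called (limma adjusted p = 0.0618 and 0.0597), while Plk1 was called under all 14 alternatives. Ezh2, at 0.10, did not share that direction. Of 15 tested immediate early genes, 14 rose and 1 fell, Atf3. Fos, for example, rose from 63.73, 70.00 and 68.14 FPKM in WT to 189.15 and 333.02 FPKM in KO. KO replicate 3 was the higher for Fos as it was for Ezh1 and Kdm6b, and the part of this response in the values of Ezh1 and Kdm6b was not tested.

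Genes known as Polycomb targets were followed as well. Of 39 such genes 16 were in the table, and the 23 without a row were not analysed here. The filter, at least 1 FPKM in 2 libraries, was passed by 7 of the 16. Cdkn2a, Cdkn2b, Meis1 and Cdkn1a rose and 2 were not called, while Hoxb2 passed the filter through its KO values alone and is given by its values, with no weight on its call. Cdkn2a, which encodes the cell cycle inhibitor p16 and the p53 activator ARF and is the best known target of BMI1, held 150.28, 135.49 and 152.60 FPKM in WT and 179.59 and 177.52 FPKM in KO (log2 change 0.29 ± 0.08 SE, limma adjusted p = 0.0396). Both KO libraries were above all WT libraries, and the 2 products were not told apart in the table. Its neighbour Cdkn2b rose from 17.64, 15.58 and 17.94 FPKM to 20.83 and 25.02 FPKM (0.40 ± 0.11, limma adjusted p = 0.0343). Cdkn2a and Cdkn2b lost their calls under 8 and 7 of 14 alternatives, among them the fit with sex as a covariate and those without KO replicate 3 or any 1 of the 3 WT libraries. Without KO replicate 2, Cdkn2a lost its call too. The homeobox gene Meis1 rose from 4.64, 5.94 and 5.36 FPKM to 12.27 and 11.05 FPKM (1.01 ± 0.12, limma adjusted p = 0.00126), and Cdkn1a, the inhibitor p21 better known as a target of p53, rose by 0.80 (limma adjusted p = 0.00104). Both were called under all 14 alternatives. Hoxb2 held 0.54, 0.22 and 0.09 FPKM in WT and 1.30 and 1.12 FPKM in KO, a level near the filter, and was not tested in the fits that omit a KO library. Hoxb4 (log2 change -0.30, limma adjusted p = 0.269) and Igf2bp2 (-0.34, 0.125) did not pass, although Igf2bp2 was called lower without the mean-variance trend (0.0299).

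**Figure D5:**
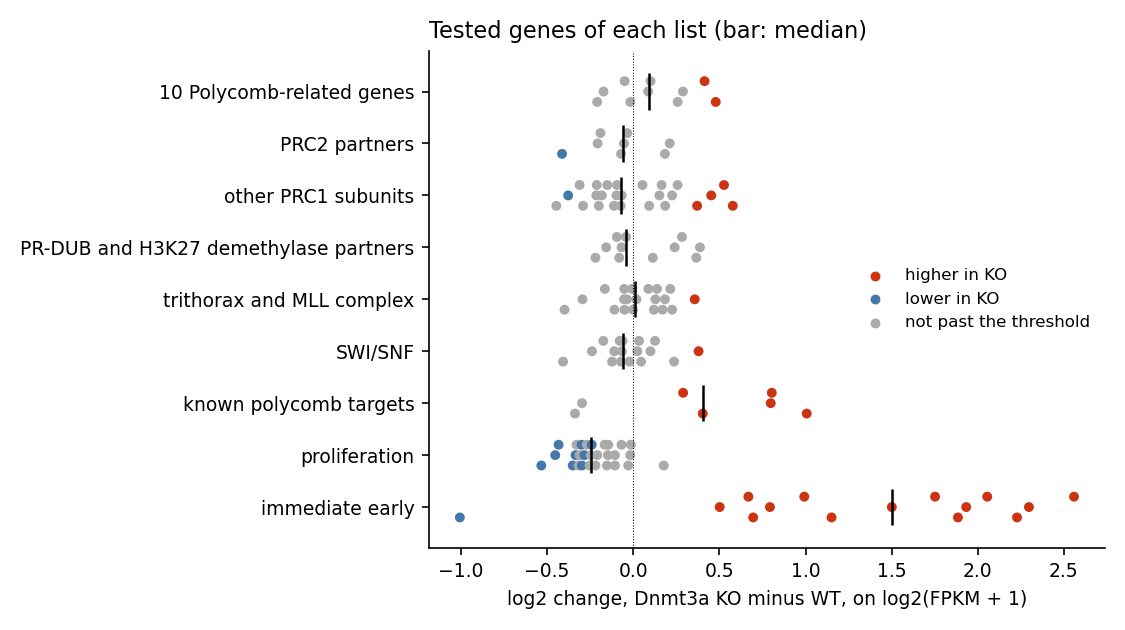
log2 change (Dnmt3a KO minus WT, on log2(FPKM + 1)) of the tested genes of each list, 1 point per gene, with a bar at the list median and colour by call. The 10 Polycomb-related genes lie around a median of 0.09, close to the partner lists, while 14 of 15 immediate early genes were called higher and the proliferation genes lie around -0.24.

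In the authors' deposited table, the ratio of the group means was 1.44 for Ezh1 and 1.39 for Kdm6b. The adjusted p of the second test in the authors' deposited table was 0.0209 for Ezh1 and 0.0825 for Kdm6b, and it was at least 0.374 for the other 8 genes. The sources used here do not name the input of that test.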

How the data were processed

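Bone marrow cells of WT and Dnmt3a KO mice were profiled by sequencing of oligo(dT)-selected mRNA, per the labels' protocols. The authors deposited 1 table with FPKM per library rounded to 2 decimals, a signed fold between group means (a score), p-values of 2 tests, and a log fold change and log level (scores) whose base the sources used here do not state and which were not used. Tools named without a role, per the submitters' processing notes, are edgeR, HISAT and StringTie 1.2.1, with mm10 as the build. The FPKM depth is unknown. limma 3.58.1 in R 4.3.3 compared the genotypes on log2(FPKM + 1), with 3 residual degrees of freedom and prior variances that follow the mean level, for genes with at least 1 FPKM in at least 2 libraries. Two-sided p-values were corrected over every gene tested (Benjamini-Hochberg), with a threshold of 0.05. The procedure was tested on simulated data. These had independent noise, few changed genes and no difference in sex or cell mix, so they give no error rate for the present data.

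Groups follow the sample titles. The labels call the KO cells knockdown in 1 field, and nothing states that each replicate is its own animal or culture, so the p-values rest on a spread between samples that may be technical. The members and gene lists were chosen with earlier results of these data known. All 10 members were named. Of the other lists, up to 6 called genes with the smallest p and up to 3 uncalled genes with the highest level were named, and Kdm6a, Asxl2, Pcgf2 and Kdm5c were added after their values were seen. Of the cell type lists, counts of calls are given, with sums for 5 lists, and some genes are named. Alternatives were other scalings, a pseudocount of 0.1, no filter, other variance models, sex as a covariate, a replicate block and leaving out each library. A fit that leaves out a KO library assumes that the lone one varies like WT. Positions and promoter sequences are from RefSeq (GRCm38.p6), and overlaps from GENCODE.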

Additional observations from a re-analysis of the deposited data

How the results depend on the processing

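Of the 10 genes, Ezh2, Suz12, Ring1, Rnf2 and Cbx7 kept their direction and stayed uncalled under all 14 alternatives, Ezh1 kept its call in 10 and Kdm6b in 6. The number of these genes called, 2 as reported, was 1 with the replicate block, without the mean-variance trend or with no filter on low genes, and 0 with sex as a covariate (3 at an unadjusted p under 0.05 in limma). Leaving out 1 library gave 0 (without WT replicate 2, WT replicate 3 or KO replicate 3) to 2 (without KO replicate 2). Over all genes, 1312 were called with sex as a covariate against 2507, and leaving out 1 library gave 1623 (without WT replicate 2) to 2659. The share of calls that were higher in KO was 41.2% as reported, 49.8% after median-of-ratios scaling, 50.4% after quantile normalization and 54.2% after upper-quartile scaling.

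The labels share replicate numbers 2 and 3 between the groups. Over genes, the difference between WT replicates 3 and 2 correlated with that between KO replicates 3 and 2 at r = 0.04, which gives no sign of pairing with only 2 shared numbers. With the replicate block 2058 genes were called, Ezh1 kept its call (0.51, limma adjusted p = 0.0327) and Kdm6b lost it (0.38, 0.0973). WT replicate 1 carries no weight in that fit. As in the fit without that library, only WT libraries with Xist then face KO libraries that nearly lack it. Sex and genotype cannot be told apart in these fits. Both gave the same log2 change for Ezh1, so the 14 alternatives are not independent of each other. Kdm6a and Kdm5c were called lower with the block and not as reported.

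Sign changes were seen in uncalled genes, with values under 0.1 except for Kdm6a. After median-of-ratios scaling Bmi1 was 0.028 and Bap1 0.0044. After quantile normalization Eed was 0.013, Bmi1 0.029, Rbbp4 0.026 and Bap1 0.011. After upper-quartile scaling Eed was 0.029, Bmi1 0.058, Rbbp4 0.027, Aebp2 0.0081 and Bap1 0.036. With sex as a covariate Eed was 0.029 and Kdm6a 0.41, and with the replicate block Bap1 was 0.030. Leaving out 1 library gave ranges of -0.16 to 0.062 for Eed, -0.092 to 0.057 for Bmi1, -0.060 to 0.23 for Asxl1, -0.18 to 0.072 for Rbbp4, -0.19 to 0.045 for Aebp2, -0.037 to 0.14 for Fbrs and -0.11 to 0.030 for Bap1. The cause was not tested.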

Other observations

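Some genes of the Polycomb lists lay below the filter on low values and were not tested. Hoxa9, a target of the MLL and Polycomb systems in blood progenitors, held 0.67, 0.74 and 0.44 FPKM in WT and 0.06 and 0.13 FPKM in KO. Hoxa7 held 0.10, 0.18 and 0.08 FPKM in WT and 0.02 and 0 FPKM in KO. In these 2 genes both KO libraries were below all WT libraries, whereas in Hoxb2 both were above. Auts2, which encodes a subunit of a variant PRC1, held 0.07, 0.07 and 0.10 FPKM in WT and 0.23 and 0.46 FPKM in KO. At these levels a few reads can set a value, and the read numbers are unknown.

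The X-linked demethylase gene Kdm5c, of the H3K4 marks and also known to escape X inactivation, showed a pattern like Kdm6a. It held 13.39, 18.71 and 20.15 FPKM in WT and 11.51 and 14.17 FPKM in KO. Its log2 change was -0.40 (limma adjusted p = 0.152), it passed without WT replicate 1 (-0.57, limma adjusted p = 0.0221) and with the replicate block (-0.57, 0.0118), and it was -0.06 (limma adjusted p = 0.835) with sex as a covariate.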
